A study of Mus musculus with 20 samples.

Results

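The Hox genes of the mouse, 38 genes in the Hoxa, Hoxb, Hoxc and Hoxd clusters out of 21887 protein-coding genes, were described from peak lists of CUT&Tag, an assay in which an antibody directs a transposase to a chromatin protein or histone mark so that the DNA beside it is cut out and sequenced. They were taken from a fixed list by name, 10 genes in Hoxa, 10 in Hoxb, 9 in Hoxc and 9 in Hoxd, and the rule itself uses no measured value. A Hox gene was examined over its window, the gene from start to end with 5 kb on each side, and was counted for a library when a deposited peak overlapped that window by at least 1 bp. The chromatin came from CVGs of C57BL/6J embryos at E11.5, where CVG is the usual short form for the cochleovestibular ganglion of the inner ear. No genetic change or treatment is named for any group, and the whole dissected ganglion was used, with every cell type in it.

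Of 20 libraries, 14 had a peak list: H3K27me3 (n = 3), H3K27ac (n = 3), H3K4me3 (n = 2), POU4F1 (n = 2), ISL1_70 (n = 3) and ISL1_26 (n = 1). The 6 control libraries, IgGR (n = 3) and IgGM (n = 3), were not analysed here. What 26 and 70 stand for is not stated in the labels, so the 4 ISL1 libraries were treated as replicates of 1 target. The labels also do not say whether libraries of 1 antibody came from separate embryos, so the spread between them may be technical. H3K27me3 is deposited by Polycomb complexes on repressed genes, H3K27ac lies on active promoters and enhancers, and H3K4me3 lies on promoters. ISL1 is a LIM homeodomain factor and POU4F1 a POU homeodomain factor, both used by sensory neurons.

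Hox proteins are homeodomain transcription factors that give cells their position along the head-to-tail axis. Within a cluster the genes are transcribed in 1 direction and are used in the order in which they lie: low paralog numbers are active early and far to the front, in the hindbrain, and high numbers late and towards the tail. Polycomb complexes keep Hox genes silent in cells in front of their domain, and the inner ear and its ganglion form beside the hindbrain, near the front limit of Hox expression.

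The lists held between 8855 and 168144 peaks, the depth of the libraries is unknown, and no list held a peak with a −log10 q below 1. Of the H3K27me3 libraries, replicate 1 stood apart, with short peaks (median 0.350 kb) and covered shares far below those of replicates 2 and 3. The library labelled H3K4me3 replicate 1 covered the Hox windows as broadly as H3K27me3 replicates 2 and 3 and is given apart from H3K4me3 replicate 2. Of 11 markers of cochleovestibular neurons all 11 had H3K27ac in at least 2 of 3 libraries, and Isl1 itself had 16.4%, 62.1% and 54.8% of its window under H3K27ac in replicates 1, 2 and 3. H3K27me3 in at least 2 libraries was found at 9 of these 11 markers as well, against 32.2% of all genes, and covered 13.8%, 57.4% and 20.3% of the Isl1 window. H3K27ac in at least 2 libraries was also found at 5 of 6 markers of Schwann cells and neural crest, 4 of 6 of otic epithelium, 4 of 6 of mesenchyme, 3 of 6 of hindbrain progenitors and 4 of 6 of endothelium and blood, against 69.3% of all genes. The part of these cell types in the results was not tested, and in such a mixture fewer cells with a mark and less mark per cell cannot be told apart.

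Every Hox gene lay in H3K27me3. All 38 had an H3K27me3 peak in at least 2 of 3 libraries, against 32.2% of all genes, and 35 had one in all 3, against 18.4%. The 3 without a peak in replicate 1 were Hoxc11, Hoxd1 and Hoxd12. H3K27me3 covered 10.2%, 93.6% and 92.9% of the Hox windows in replicates 1, 2 and 3, against 0.520%, 1.74% and 2.80% of all gene windows. Both sets of values were lowest in replicate 1, and in each library the Hox share was above the share over all genes. The library labelled H3K4me3 replicate 1 covered 92.4% of the Hox windows, against 1.92% of all gene windows. It had a peak at all 38 Hox genes, against 29.1% of all genes, where H3K27me3 replicates 1, 2 and 3 had one at 35, 38 and 38, against 45.1%, 26.8% and 41.1%. Hox windows were short, with a median of 13.7 kb against 27.2 kb over all genes.

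With the stricter rule that at least 50% of the window be covered in at least 2 libraries, all 38 Hox genes were still called, against 1.96% of all genes, which is 430 genes. The lowest member was Hoxd1, at 0%, 62.0% and 71.2% in replicates 1, 2 and 3. The median member was covered to 9.42%, 96.8% and 95.2%, while the median gene of the genome was covered to 0% in each library. Ranked by H3K27me3 share in replicate 2, every Hox gene fell in the top 1.48% of genes, and in replicate 3 in the top 1.48% as well, with Hoxd1 the last in both. This did not hold in replicate 1, where the median rank of the members was 1.75% but Hoxc11, without a peak, ranked at 100%.

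**Figure D1:**
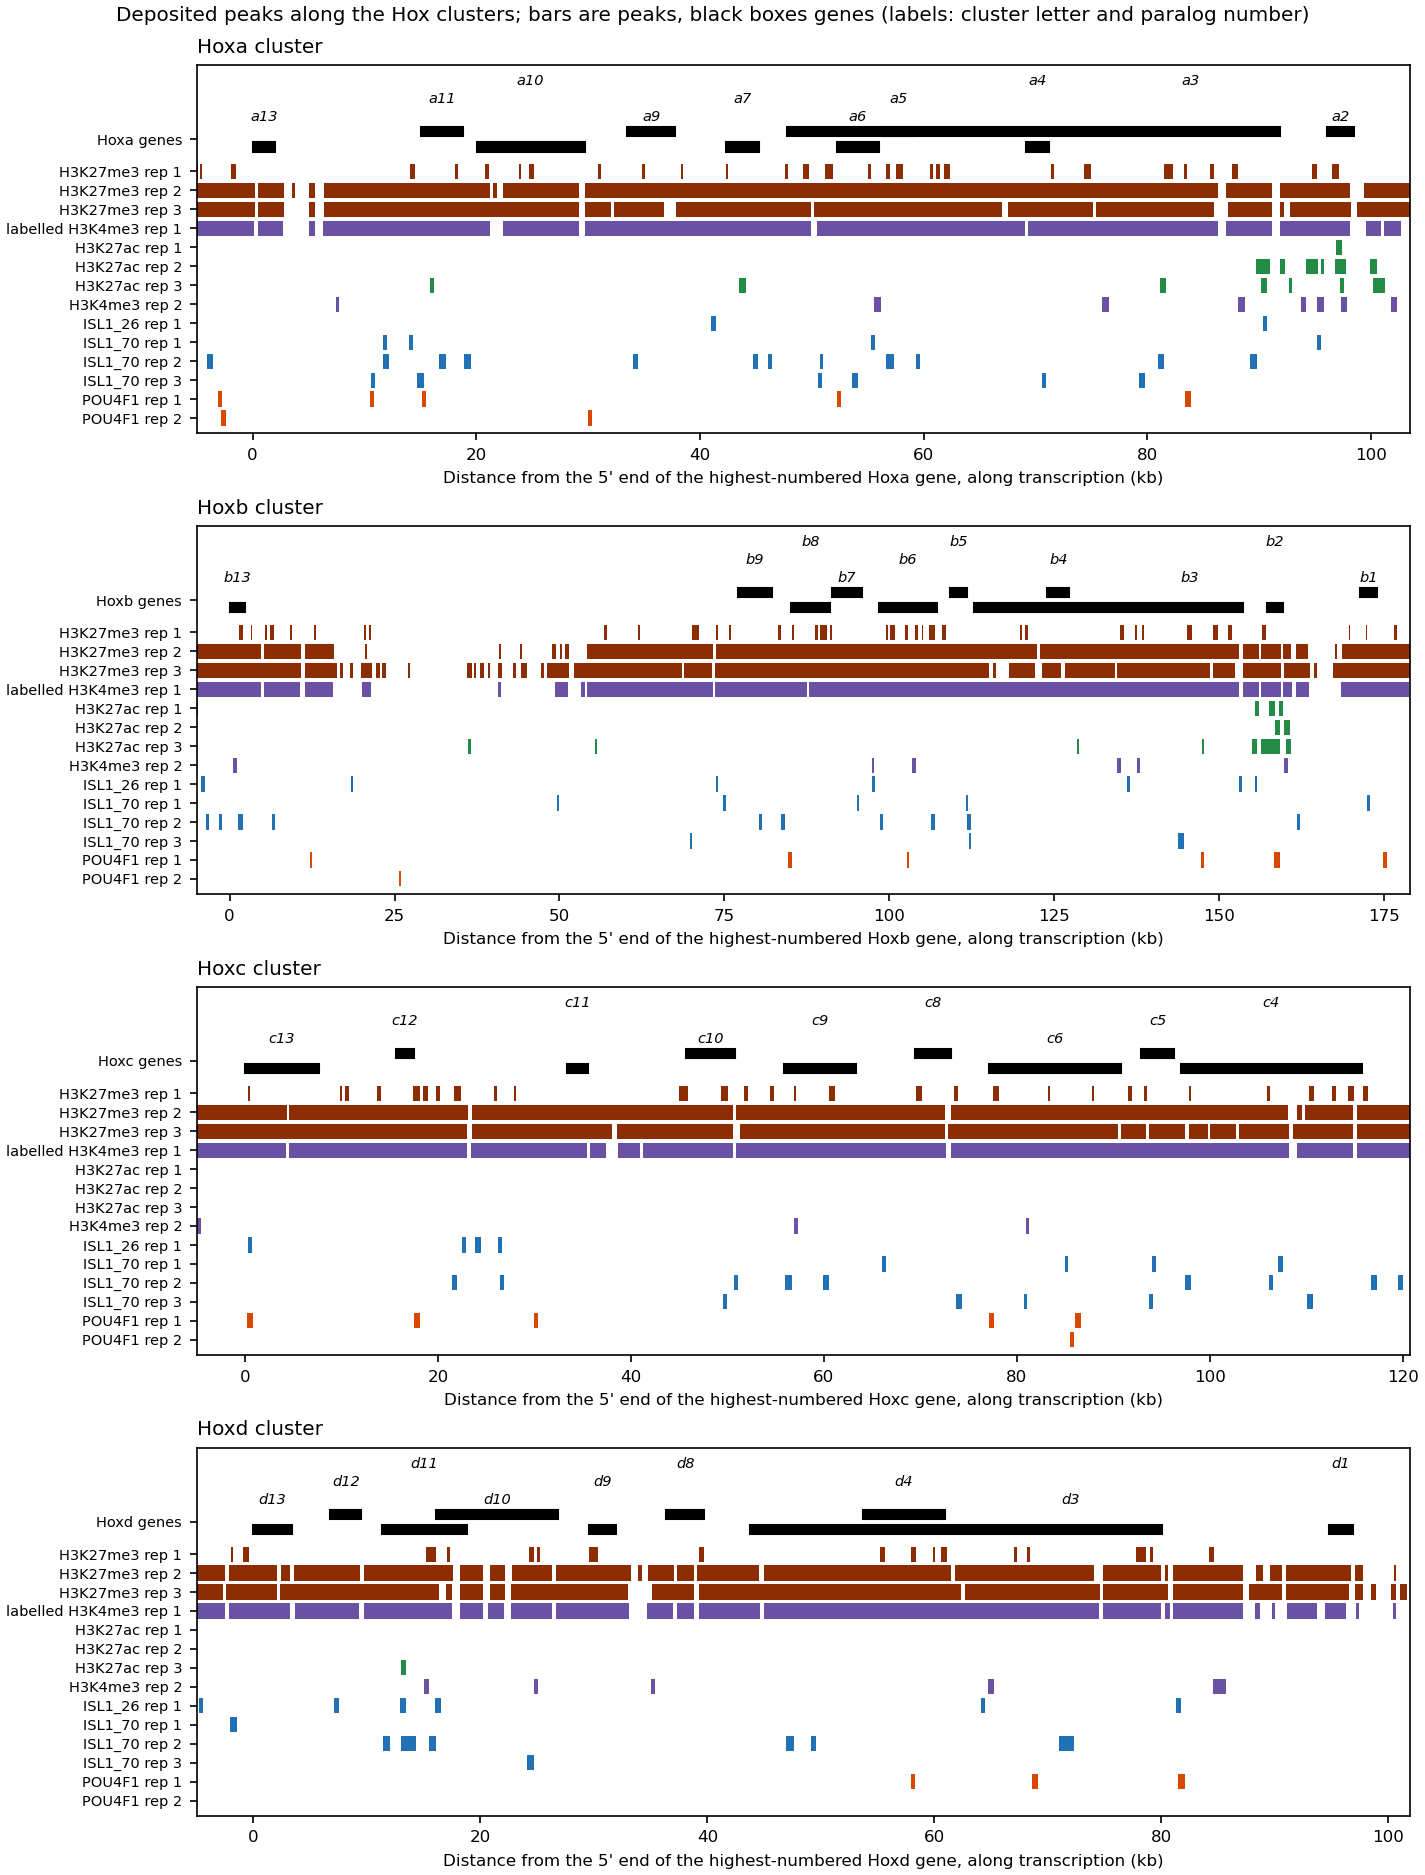
Deposited peaks along the Hoxa, Hoxb, Hoxc and Hoxd clusters, with distance from the 5′ end of the highest-numbered gene in kb on the horizontal axis and 1 line for each of the 14 libraries. Bars are peaks and black boxes are genes; H3K27me3 replicates 2 and 3 and the library labelled H3K4me3 replicate 1 fill most of each cluster, and H3K27ac of all 3 libraries meets only inside Hoxa2 and Hoxb2.

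With gaps of up to 5 kb joined, H3K27me3 replicates 2 and 3 had 1 domain over each of Hoxa, Hoxc and Hoxd and 2 over Hoxb, and replicate 1 had 6 to 10 short ones on a cluster, as the plot of peaks along the clusters shows. The Hoxa cluster, from Hoxa2 to Hoxa13, lies at chr6:52162417-52260880 (98.5 kb; mm10 throughout). H3K27me3 covered 10.8%, 93.8% and 90.8% of it in replicates 1, 2 and 3. The single domain of 129 kb in replicate 2 and 135 kb in replicate 3 held all 10 listed genes. Its end beyond Hoxa13 lay 35.1 kb and 32.0 kb short of Evx1, a homeobox gene that neighbours the cluster, and its other end lay 137 kb and 134 kb from Skap2.

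The Hoxb cluster, at chr11:96194316-96368254 (174 kb), was covered to 9.52%, 74.3% and 79.9%, the lowest of the 4 clusters in replicates 2 and 3. There the domain was split. A stretch of 142 kb in replicate 2 and 148 kb in replicate 3 held the 9 genes Hoxb1 to Hoxb9, and Hoxb13, which lies far from the others, sat in a separate domain. The longest interval free of H3K27me3 in both replicates was 8.71 kb, chr11:96221634-96230344, between Hoxb13 and Hoxb9. A shorter one of 2.37 kb, chr11:96359209-96361576, lay between Hoxb2 and Hoxb1.

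The Hoxc cluster, at chr15:102921131-103036856 (116 kb), had the highest cover in replicates 2 and 3, at 10.8%, 97.3% and 96.2%. Its domain was 168 kb in replicate 2 and 232 kb in replicate 3, all 9 genes inside, and its ends differed between the replicates more than those of the other clusters. Towards Smug1 the domain ran 34.6 kb past Hoxc4 in replicate 2 and 86.0 kb in replicate 3. No interval of 500 bp or more within the Hoxc cluster was free of H3K27me3 in both.

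The Hoxd cluster, at chr2:74668225-74765142 (96.9 kb), was covered to 7.12%, 89.9% and 92.3%. The domain of 126 kb in replicate 2 and 131 kb in replicate 3 held all 9 genes and ran on over Evx2, the homeobox gene beside Hoxd13. It ended 3.81 kb and 8.43 kb past Hoxd1. Of the 30 intervals of at least 500 bp free of H3K27me3 in both replicates across the 4 clusters, 0 held an H3K27ac peak or an H3K4me3 replicate 2 peak. H3K27ac covered at most 4.02% of a cluster in any library, and H3K4me3 replicate 2 at most 3.87%. With so little cover, 0 in these short intervals says little.

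The peaks on the clusters were among the longest of their lists. In replicate 2, 5 of the 20 longest H3K27me3 peaks lay on a Hox cluster, and the longest of these, 56.6 kb, was the second longest of 14140. In replicate 3, 2 of the 20 longest did, and the longest was 41.6 kb, the third of 39310. In replicate 1 none of the 20 longest did, and the longest Hox peak was 1.03 kb.

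Paralog number and H3K27me3 cover were related differently in the 4 clusters. Over the mean of replicates 2 and 3, Spearman's rho was 0.78 in Hoxb (10 genes) and 0.83 in Hoxc (9 genes), but −0.13 in Hoxa (10 genes) and 0.17 in Hoxd (9 genes). Over the mean of all 3 libraries it was 0.70, 0.43, −0.31 and 0.15 for Hoxb, Hoxc, Hoxa and Hoxd. Over all 38 genes it was 0.23 for the mean of replicates 2 and 3 and 0.11 for the mean of all 3 libraries. Over the gene body alone the value of the 3 libraries turned to −0.02 over all 38 genes and to −0.13 in Hoxd, and it fell to 0.49 in Hoxb. These are descriptions across genes whose windows overlap and share peaks. In Hoxc the means of replicates 2 and 3 lay only between 93.8% and 100%, so rho ranked small differences there. In Hoxa the cover in replicates 2 and 3 was lowest at the 2 ends. Hoxa2 had 8.90%, 84.7% and 85.7% and Hoxa13, the last gene of the cluster and a limb and genital patterning gene, had 5.66%, 74.8% and 71.7%. Between them Hoxa5 was highest, at 23.7%, 100% and 100%.

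By bands of paralog numbers, the 7 genes of paralogs 1 to 3 had median covers of 8.90%, 84.8% and 88.3% in replicates 1, 2 and 3. The 15 genes of paralogs 4 to 8 had 10.3%, 100% and 96.4%, and the 16 of paralogs 9 to 13 had 7.72%, 95.1% and 95.5%. The band of the lowest numbers was below the others in replicates 2 and 3, and the ranges of all 3 bands overlapped. In Hoxb the lowest gene by mean was Hoxb2, with 4.63%, 73.6% and 81.7%, and the highest was Hoxb6, with 19.04%, 100% and 100%. In Hoxc the lowest was Hoxc11, with 0%, 100% and 95.4%, where only replicate 1 is low, and the highest was Hoxc12, with 23.3%, 100% and 100%. In Hoxd the highest was Hoxd4, with 10.3%, 98.0% and 97.6%.

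**Figure D2:**
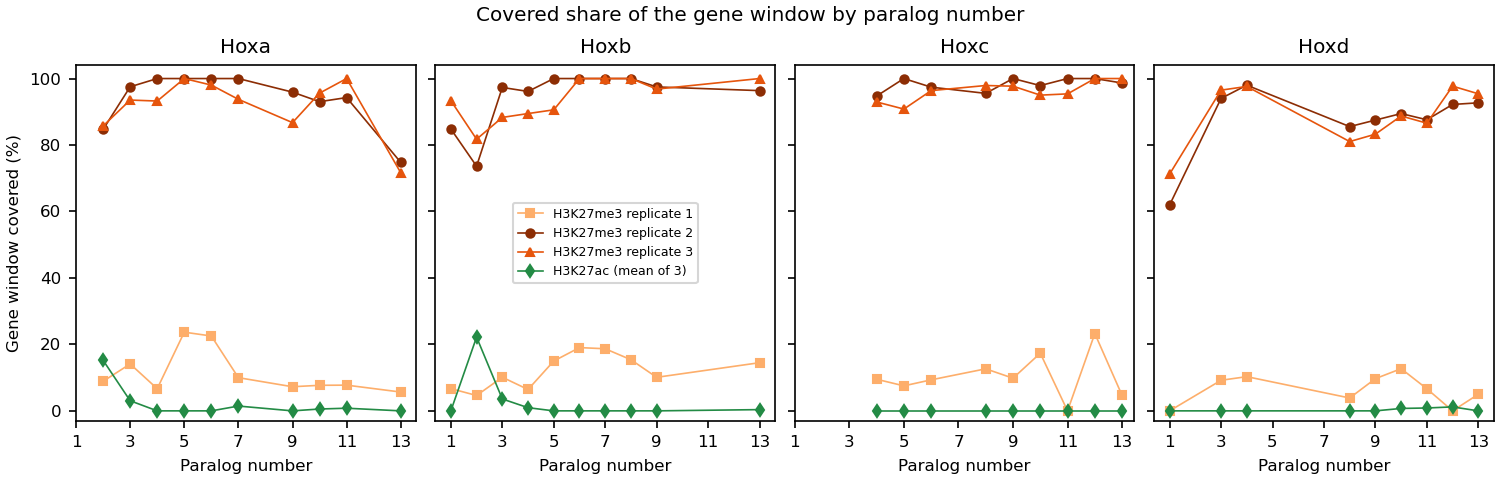
Share of each Hox gene window under peaks (vertical axis, %) against paralog number (horizontal axis), 1 panel for each cluster, with each H3K27me3 library drawn apart and H3K27ac as the mean of 3 libraries. H3K27me3 replicates 2 and 3 lie between 62.0% and 100%, replicate 1 between 0% and 23.7%, and H3K27ac is above 10% only at Hoxa2 and Hoxb2.

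H3K27ac was called at few of the same genes. An H3K27ac peak in at least 2 of 3 libraries was found in 4 of 38 Hox windows, those of Hoxa2, Hoxa3, Hoxb2 and Hoxb3, against 69.3% of all genes. By library, H3K27ac replicate 1 had a peak at 4 Hox genes (34.1% of all genes), replicate 2 at 4 (70.1%) and replicate 3 at 11 (78.7%). All 3 libraries had one at 3, Hoxa2, Hoxb2 and Hoxb3, against 32.0% of all genes. Both H3K27me3 and H3K27ac, each in at least 2 libraries, were found at the same 4 genes, against 26.1% of all genes. No H3K27ac peak in any library was found at 26 Hox genes, against 18.4% of all genes. H3K27me3 without H3K27ac, each judged in at least 2 of 3 libraries, described 34 Hox genes, against 6.09% of all genes. The Hox windows were covered by H3K27ac to 0.642%, 1.41% and 2.10% in replicates 1, 2 and 3, against 0.441%, 5.11% and 6.32% of all gene windows. In replicates 2 and 3, which had 106628 and 168144 peaks, the Hox share was below that of all genes, and in replicate 1, with 8855 peaks, it was above.

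In 33 of 38 Hox genes the covered share was higher in all 3 H3K27me3 libraries than in all 3 H3K27ac libraries, against 3.07% of all genes. The opposite order was found in 0 Hox genes, against 18.3% of all genes. The 5 others were Hoxa2 and Hoxb2, where H3K27ac was above H3K27me3 replicate 1, and Hoxc11, Hoxd1 and Hoxd12, where H3K27me3 replicate 1 had no peak. The count of 33 became 25 over the gene body alone, 26 with a −log10 q of at least 2 and 38 without H3K27me3 replicate 1. With 3 libraries against 3 the two-sided exact permutation test cannot give a p below 0.10 for a gene, so none is given.

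Hoxa2, at chr6:52162417-52164831, patterns the hindbrain and the second branchial arch. In its window H3K27ac covered 3.995%, 27.5% and 14.1% in replicates 1, 2 and 3, and H3K27me3 covered 8.90%, 84.7% and 85.7%. The only merged interval there with H3K27ac peaks of all 3 libraries was chr6:52163105-52164102, within the gene, and 2 libraries had H3K27ac within 1 kb of the 5′ end. H3K4me3 replicate 2 covered 17.5% of this window, the highest among the Hox genes, and had a peak that came within 0.221 kb of the 5′ end on its upstream side. Both marks therefore lay over the same bases, and these lists cannot tell the same cells from different cells. The promoter is shown because its gene is 1 of 2 Hox genes with H3K27ac of at least 2 libraries at the 5′ end. In capitals are TAAT, the core of homeodomain sites, and its reverse complement ATTA, in the 300 bases at chr6:52164782-52165081, minus strand, written 5′ to 3′ (RefSeq, GRCm38.p6).
Hoxa2: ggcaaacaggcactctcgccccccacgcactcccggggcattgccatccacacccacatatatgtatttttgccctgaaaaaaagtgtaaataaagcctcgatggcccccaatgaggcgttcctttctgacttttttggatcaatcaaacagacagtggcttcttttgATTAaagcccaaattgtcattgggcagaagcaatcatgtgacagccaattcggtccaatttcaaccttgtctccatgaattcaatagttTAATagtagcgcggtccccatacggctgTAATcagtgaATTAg

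Hoxb2, at chr11:96351632-96354020, which patterns the hindbrain and facial motor neurons, had the broadest H3K27ac of the Hox genes. H3K27ac covered 17.9%, 13.3% and 35.3% of its window in replicates 1, 2 and 3, and H3K27me3 covered 4.63%, 73.6% and 81.7%. Merged, the H3K27ac peaks of all 3 libraries joined into chr11:96350732-96354060, which spans the whole gene, though no single library covered all of the gene. A further 2 libraries met at chr11:96354241-96355279, downstream of it. H3K4me3 replicate 2 had 1 peak in the window, from 2.54 kb to 3.11 kb after the 5′ end, and none at the 5′ end. A peak of POU4F1 replicate 1, chr11:96352735-96353499, lay inside the H3K27ac interval, and replicate 2 of POU4F1 had none there.

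**Figure D3:**
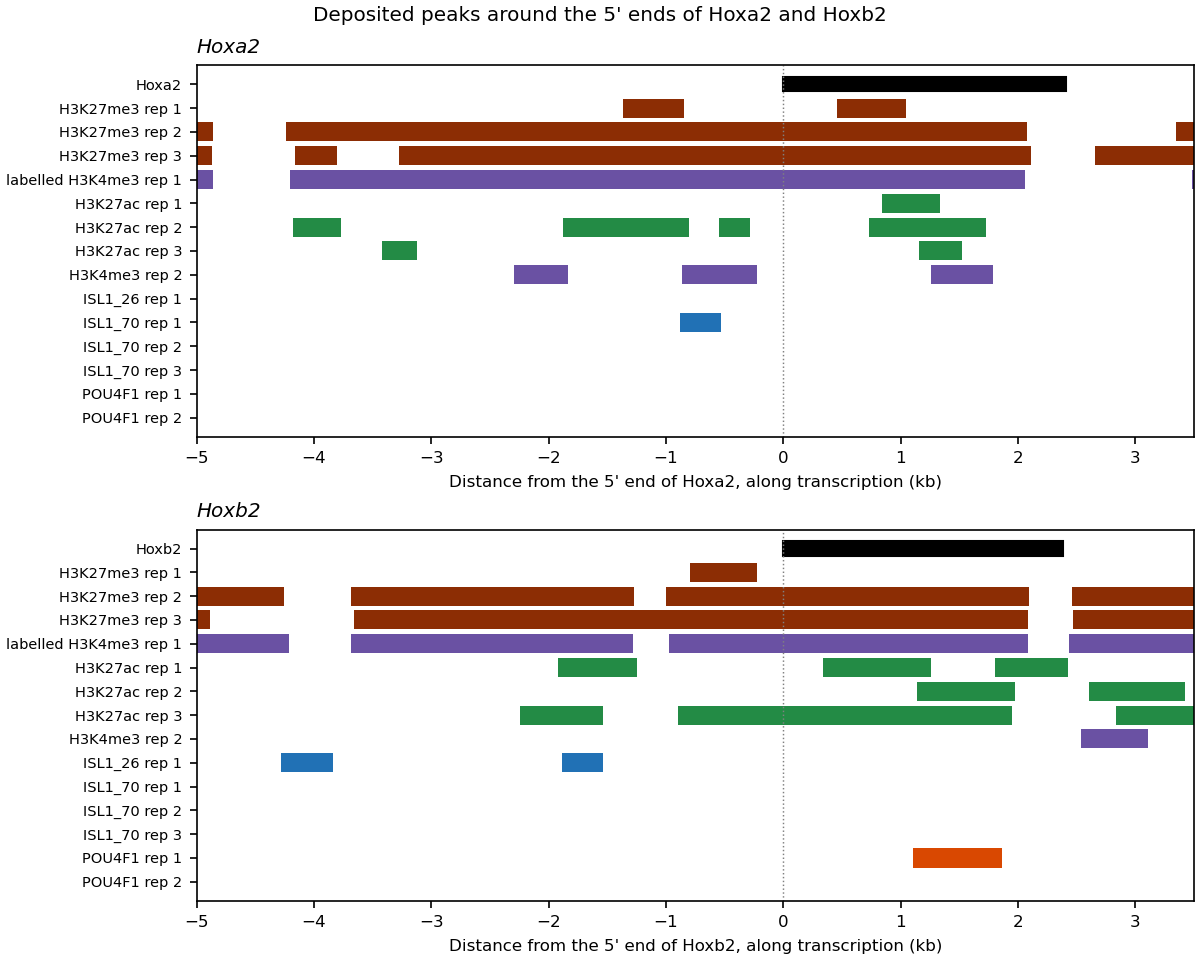
Deposited peaks around Hoxa2 (top) and Hoxb2 (bottom), with distance from the 5′ end along transcription in kb on the horizontal axis and 1 line for each library. Bars are peaks and the black box is the gene; H3K27ac peaks of all 3 libraries meet inside both genes, where H3K27me3 replicates 2 and 3 also have peaks.

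Hoxa3 and Hoxb3, genes of the third paralog group that pattern the hindbrain and pharyngeal region, had H3K27ac in their windows in 2 and 3 libraries. Their gene models are long, 44009 and 40830 bases, and run over other Hox genes, so that peaks are shared. Hoxa3 was covered by H3K27ac to 0%, 5.56% and 3.57%, with a region in replicates 2 and 3 at chr6:52169925-52171128, in the end of the gene nearest to Hoxa2, and a further peak of replicate 3 inside the gene at chr6:52179230-52179777. An ISL1_26 peak, chr6:52170152-52170516, lay inside that region. Hoxb3 was covered to 3.14%, 0.309% and 7.29%. The part that its window shares with that of Hoxb2 held H3K27ac of replicates 1 and 3 at chr11:96349387-96350384. That part also held the start of chr11:96350732-96354060, the Hoxb2 region of all 3 libraries. The only H3K27ac of replicate 2 in the Hoxb3 window came from that Hoxb2 region. Both intervals lie outside the Hoxb3 gene. Within the Hoxb3 gene H3K27ac was found in replicate 3 only, at chr11:96322777-96323160 and chr11:96341688-96342100. With the gene body alone, 3 Hox genes had H3K27ac in at least 2 libraries, against 62.7% of all genes.

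The first paralogs listed, Hoxb1 and Hoxd1, had no H3K27ac in any library, and neither had Hoxd3. H3K27me3 covered 6.69%, 84.8% and 93.4% of the Hoxb1 window. Hoxb1 patterns the hindbrain segment beside the ear, and in mouse HOX proteins bind its promoter together with PBX. Its promoter is shown for this known site and was chosen after its values were seen. In capitals is the only match to TGATNNAT, the HOX and PBX form searched here on both strands, in chr11:96365508-96365807, plus strand (RefSeq, GRCm38.p6).
Hoxb1: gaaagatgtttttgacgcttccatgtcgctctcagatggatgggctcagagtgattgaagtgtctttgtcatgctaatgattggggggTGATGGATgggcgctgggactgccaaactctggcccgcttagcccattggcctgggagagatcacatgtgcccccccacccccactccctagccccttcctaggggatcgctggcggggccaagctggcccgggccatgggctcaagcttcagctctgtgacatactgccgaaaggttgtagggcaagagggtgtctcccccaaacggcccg

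In the other 2 clusters H3K27ac was rarer still. The Hoxc cluster had 0% under H3K27ac in each of the 3 libraries, and the Hoxd cluster had a single peak, in replicate 3, at chr2:74681188-74681641 in Hoxd11. Of the 12 Hox genes with H3K27ac in any library, 8 had it in 1 library: Hoxb13 in replicate 1, and Hoxa7, Hoxa10, Hoxa11, Hoxb4, Hoxd10, Hoxd11 and Hoxd12 in replicate 3. The share over all genes for H3K27ac in at least 1 library was 81.6%. On the clusters with 5 kb on each side, 19 merged H3K27ac regions were found, of which 6 had peaks of at least 2 libraries, 31.6%, against 22.6% of all 220803 H3K27ac regions.

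**Figure D4:**
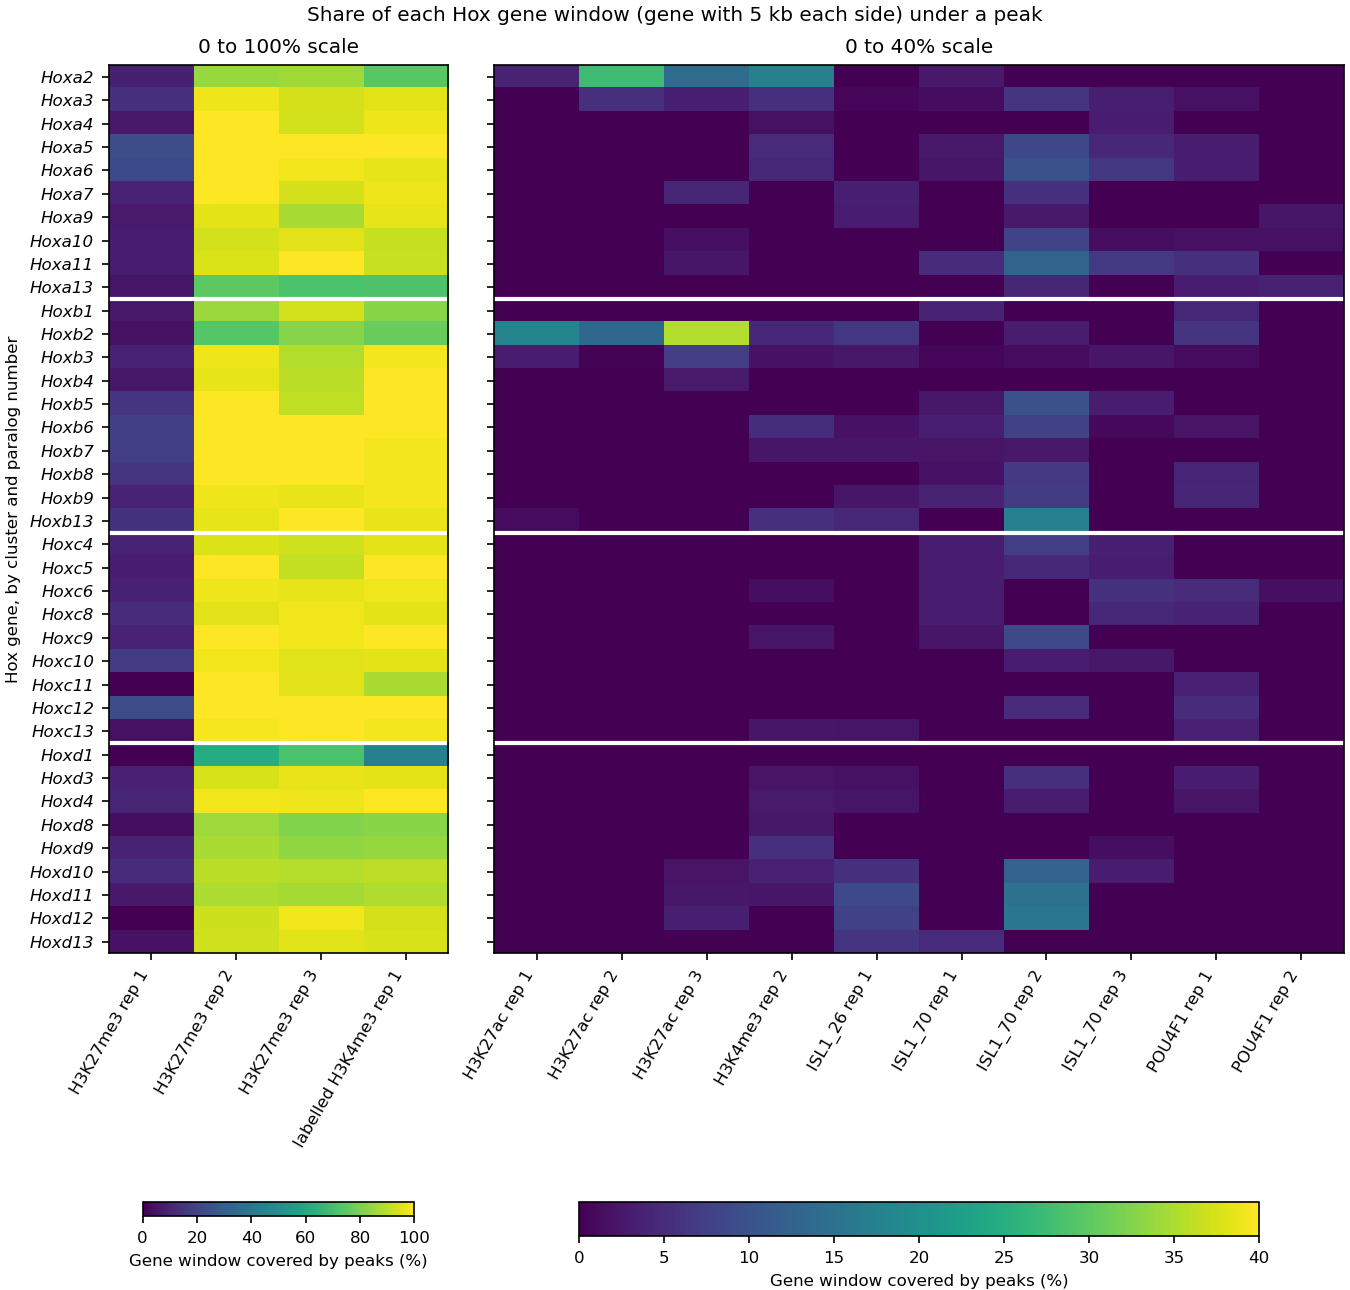
Share of each of the 38 Hox gene windows (rows, by cluster and paralog number) under peaks of each of the 14 libraries (columns), as colour in %, with a scale to 100% on the left and to 40% on the right. In the left columns H3K27me3 replicates 2 and 3 lie between 62.0% and 100%, the library labelled H3K4me3 replicate 1 between 43.9% and 100% and H3K27me3 replicate 1 between 0% and 23.7%, and the brightest cells on the right are H3K27ac at Hoxa2 and Hoxb2.

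H3K4me3 replicate 2 had a peak at 19 of 38 Hox genes, against 55.8% of all genes, and covered 2.36% of their windows, against 1.08% of all gene windows. At the 5′ end, within 1 kb, it had a peak at 6 of 38 Hox genes, against 41.1% of 17492 genes: Hoxa2, Hoxa5, Hoxb6, Hoxb13, Hoxd8 and Hoxd11. H3K27me3 in at least 2 libraries lay at all 38 Hox 5′ ends, against 18.5% of 17492 genes, and H3K27ac at 2, Hoxa2 and Hoxb2, against 48.4%. Over the gene body alone, H3K4me3 replicate 2 had a peak at 11 Hox genes, against 49.2% of all genes. H3K4me3 rests on 1 library here, so it has no replicate check.

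ISL1 peaks on the Hox genes were scattered. A peak in at least 2 of 4 ISL1 libraries was found in 27 of 38 windows, 71.1%, against 68.0% of all genes, so the Hox share was near the background. It rested on ISL1_70 replicate 2. That library had a peak at 26 Hox genes, against 35.7% of all genes. The others had one at 16 (ISL1_26 replicate 1, against 69.0%), 18 (ISL1_70 replicate 1, against 67.3%) and 16 (ISL1_70 replicate 3, against 47.5%). Without ISL1_70 replicate 2 the count was 15 of 38, or 39.5%, against 63.8% of all genes. Over the gene body alone, with all 4 libraries, it was 12, against 52.2%. A peak in all 4 libraries was found at 3 Hox genes, Hoxa3, Hoxb3 and Hoxb6, against 20.1% of all genes.

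ISL1_70 replicate 2 covered 4.66% of the Hox windows, against 0.560% of all gene windows, a ratio of 8.33. The ratios were 0.609 for ISL1_26 replicate 1, 0.594 for ISL1_70 replicate 1 and 1.65 for ISL1_70 replicate 3. The libraries were also set beside the 392 other genes whose windows were covered by H3K27me3 to at least 50%. ISL1_70 replicate 2 had a peak at 68.4% of Hox genes and 71.9% of those others. ISL1_26 replicate 1 had one at 42.1% of Hox genes and 72.2% of the others, ISL1_70 replicate 1 at 47.4% and 60.7%, and ISL1_70 replicate 3 at 42.1% and 51.5%. The part of H3K27me3 chromatin in this library was not tested.

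**Figure D5:**
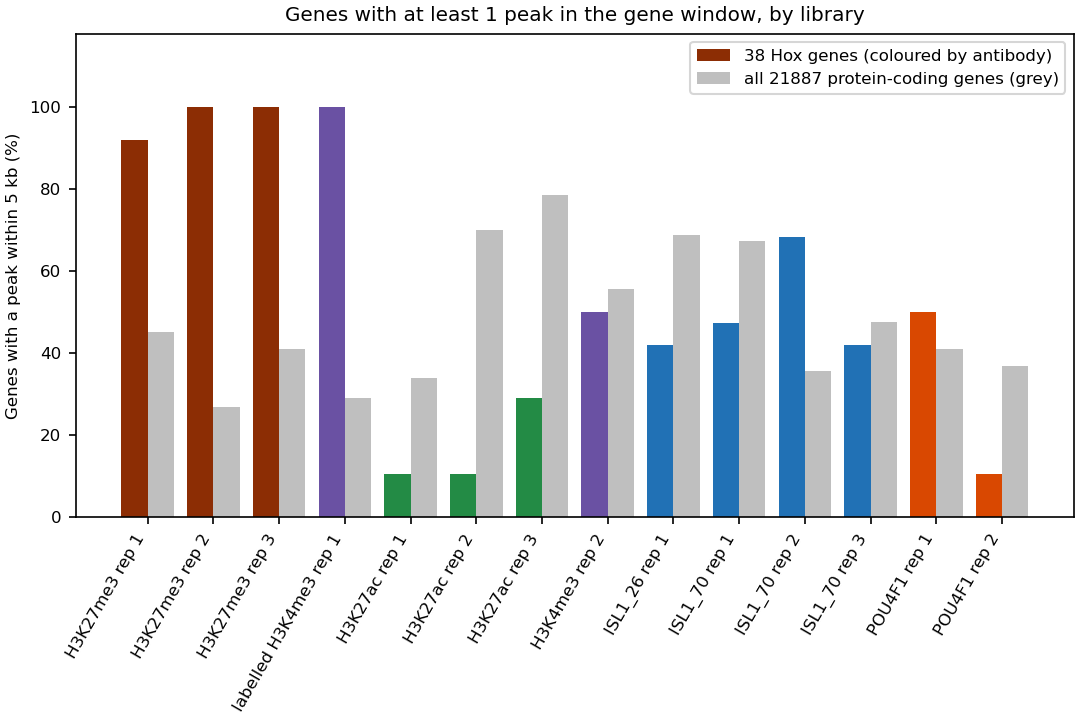
Share of genes with at least 1 peak in the gene window (vertical axis, %) for each of the 14 libraries, the 38 Hox genes as coloured bars and all 21887 protein-coding genes as grey bars. H3K27me3 and the library labelled H3K4me3 replicate 1 have the Hox bar above the grey one, H3K27ac has it below, and the ISL1 and POU4F1 libraries are mixed.

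On the clusters with 5 kb on each side, 77 merged ISL1 regions were found, of which 7 had peaks of at least 2 libraries, 9.09%, against 9.53% of all 214116 ISL1 regions, so the share was near the background. The region with the most libraries was chr11:96305911-96306784, 874 bases over the 3′ end of Hoxb5, a gene of the trunk and enteric crest, and before Hoxb3. It had a peak in ISL1_70 replicates 1, 2 and 3 and none in ISL1_26. Of the others, 2 lay in Hoxd11, a limb and kidney patterning gene, at chr2:74681116-74682566 and chr2:74683691-74684738, both in ISL1_26 replicate 1 and ISL1_70 replicate 2. A further one lay in Hoxc5, chr15:103014853-103015545, in ISL1_70 replicates 1 and 3.

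Within 1 kb of the 5′ end, ISL1 of at least 2 libraries was found at 5 of 38 Hox genes, against 19.9% of 17492 genes: Hoxa5, Hoxa11, Hoxb3, Hoxb6 and Hoxd11. In the first Hoxd11 region the peak of ISL1_70 replicate 2, chr2:74681223-74682566, holds the second annotated start of the gene, whose promoter, chr2:74682073-74682372, is shown for that reason beside the promoter of the first start, chr2:74679308-74679607. Both are on the plus strand (RefSeq, GRCm38.p6). In capitals are TAAT and ATTA, and both promoters hold TAATTA, which contains each of them.
Hoxd11, second start: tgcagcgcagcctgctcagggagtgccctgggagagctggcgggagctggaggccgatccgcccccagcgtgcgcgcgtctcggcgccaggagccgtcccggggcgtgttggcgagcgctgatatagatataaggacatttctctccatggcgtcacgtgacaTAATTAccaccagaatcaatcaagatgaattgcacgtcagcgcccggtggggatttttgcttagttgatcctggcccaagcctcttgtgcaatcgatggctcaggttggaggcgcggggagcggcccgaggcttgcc
Hoxd11, first start: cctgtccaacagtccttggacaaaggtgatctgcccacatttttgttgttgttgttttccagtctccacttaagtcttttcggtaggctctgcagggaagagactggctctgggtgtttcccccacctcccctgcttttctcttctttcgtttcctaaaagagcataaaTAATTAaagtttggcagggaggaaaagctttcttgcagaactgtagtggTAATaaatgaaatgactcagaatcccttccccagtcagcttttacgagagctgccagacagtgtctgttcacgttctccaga

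Hoxa5, a gene of the lung and the neck skeleton, had the highest mean H3K27me3 share of all Hox genes. ISL1 covered 0% of its window in ISL1_26 replicate 1 and 2.66%, 8.67% and 4.50% in ISL1_70 replicates 1, 2 and 3. The peak of ISL1_70 replicate 2, chr6:52203495-52204254, ended 0.333 kb from the 5′ end. H3K27ac was at 0% in each library. H3K27me3 replicates 2 and 3 covered 100% of the windows of Hoxb6, Hoxb7, Hoxb8 and Hoxc12 as well. The rank of Hoxa5 therefore rests on replicate 1. The promoter of Hoxa5, chr6:52204538-52204837, minus strand (RefSeq, GRCm38.p6), is shown as that of the gene with the highest mean share. CG is in capitals, since Polycomb domains are known to lie on CpG-rich promoters.
Hoxa5: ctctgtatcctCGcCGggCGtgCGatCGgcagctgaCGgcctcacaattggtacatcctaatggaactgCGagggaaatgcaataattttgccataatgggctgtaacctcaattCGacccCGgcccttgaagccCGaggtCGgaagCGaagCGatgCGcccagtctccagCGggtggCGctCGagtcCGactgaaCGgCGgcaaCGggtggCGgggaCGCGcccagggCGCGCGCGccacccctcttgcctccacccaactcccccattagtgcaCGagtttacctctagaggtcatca

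Promoters were found in the RefSeq table for 22 of 38 Hox genes, as 24 promoters of 300 bases. Their median GC content was 57.7%, against 52.7% over all 32851 promoters, and their median number of CG was 14.5, between 4 and 45, against 7. Hoxa13 had 45 and Hoxa9 had 4, with both genes under H3K27me3. TAAT, read on both strands, was found in 79.2% of Hox promoters, against 58.0% of all. TGATNNAT was found in 16.7%, against 8.85%. CTAATG was found in 8.33%, against 7.36%, and TAATTA in 8.33%, against 5.29%. TAAT is contained in CTAATG and TAATTA. A match is a description of the sequence and not a bound site.

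POU4F1 peaks on the Hox genes differed between the libraries. Replicate 1 had a peak at 19 Hox genes, against 41.1% of all genes, and replicate 2 at 4, against 37.0%. Replicate 1 covered 2.07% of the Hox windows, against 0.795% of all gene windows, a ratio of 2.60, and replicate 2 covered 0.267%, against 0.550%, a ratio of 0.485. Both libraries had a peak at 3, Hoxa10, Hoxa13 and Hoxc6, against 20.7% of all genes, and at least 1 library at 20, against 57.4%. Only at Hoxa13 did the 2 libraries meet, at chr6:52263249-52263966, 2.37 kb before the 5′ end. This was the only region with both libraries among 22 on the clusters, 4.55%, against 0.868% of all 62799 POU4F1 regions. Hoxa13 was covered to 3.03% in replicate 1 and 3.62% in replicate 2 of POU4F1. No Hox 5′ end had POU4F1 of both libraries within 1 kb, against 0.943% of 17492 genes.

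The Hox genes were also set beside the 392 other genes whose windows H3K27me3 covered to at least 50% in at least 2 libraries, a group chosen after the data had been seen. The median window was 13.7 kb in Hox genes and 15.5 kb in the others. H3K27ac in at least 2 libraries was found at 10.5% of Hox genes and at 43.1% of the others. No H3K27ac in any library was found at 68.4% of Hox genes and at 22.4% of the others. H3K4me3 replicate 2 had a peak at 50% of Hox genes and at 48.5% of the others. ISL1 in at least 2 libraries was found at 71.1% of Hox genes and at 84.4% of the others, or at 39.5% and 64.0% without ISL1_70 replicate 2. POU4F1 of both libraries was found at 7.89% of Hox genes and at 11.7% of the others. The median cover by H3K27me3 was 9.42%, 96.8% and 95.2% in replicates 1, 2 and 3 for Hox genes and 10.3%, 72.2% and 79.8% for the others. The Hox genes lie in 4 clusters and share peaks, so these counts are not independent and were not tested.

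Lists of genes that work with or upstream of Hox genes were counted in the same way, and differences between lists were not tested. The 9 genes of the TALE homeodomain cofactors, whose proteins bind DNA together with HOX proteins, all had H3K27ac in at least 2 libraries, and 3 had H3K27me3 in at least 2, near the 32.2% of all genes. Meis2 was covered by H3K27me3 to 2.09%, 4.59% and 5.66%, and by H3K27ac to 1.38%, 4.29% and 5.49%. Of the 12 hindbrain and retinoic acid regulators, 12 had H3K27me3 and 9 had both marks, against 32.2% and 26.1% of all genes. Of these regulators 5 were covered by H3K27me3 to at least 50% in at least 2 libraries, against 1.96% of all genes. Rara, a retinoic acid receptor, was covered by H3K27me3 to 1.47%, 6.30% and 8.52% and by H3K27ac to 2.60%, 44.1% and 44.0%. Egr2, which switches on Hoxa2 and Hoxb2 in the hindbrain, was covered by H3K27me3 to 11.3%, 50.4% and 69.5% and had H3K27ac in replicate 3 only, at 3.10%.

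The extended Hox and ParaHox genes, relatives of the clusters, were counted next. All 11 had H3K27me3 in at least 2 libraries, and 3 had H3K27ac in at least 2. By H3K27me3, 8 were covered to at least 50% in at least 2 libraries, against 1.96% of all genes. Mnx1, a motor neuron gene, was covered by H3K27me3 to 9.84%, 100% and 100% with no H3K27ac. Of the 15 Polycomb group genes all 15 had H3K27ac and 6 had H3K27me3. Of the 11 Trithorax group genes and H3K27 demethylases all 11 had H3K27ac and 2 had H3K27me3. Over all genes the shares were 32.2% for H3K27me3 and 69.3% for H3K27ac, each in at least 2 libraries.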

How the data were processed

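CUT&Tag peak lists of 14 libraries were used, 1 list for each library, with no pooling of replicates. Per the file headers (peak names), the authors called peaks with MACS2; its control and settings: not given in the sources used here. The submitters' processing notes name FastQC, Bowtie2, SEACR and mm10. The deposited columns hold, as the authors' caller gave them, a fold enrichment per peak (a ratio), p-value and q-value as −log10, a score and the summit. They were used only within a list. A deeper library gives more peaks, which changes every count.

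Genes came from a RefSeq table (GRCm38.p6, the chromosomes of mm10), restricted to chromosomes 1 to 19, X and Y. A gene was called for H3K27me3, H3K27ac or ISL1 with a peak in at least 2 libraries and for POU4F1 with a peak in both. Covered shares count bases under merged peaks. A 5′ end came from the promoter table, or, for 16 Hox genes without an entry, from the gene end that faces the higher paralog numbers. Counts of Hox genes stand beside the same over all genes, with no test; interval code was tested on simulated data. Python 3.11.15, pandas 2.3.3 and numpy 2.4.6 were used.

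The members and gene lists were chosen with earlier results of these data known. The rule on 50% of the window, the means of H3K27me3 replicates 2 and 3, the paralog bands and the group of other covered genes were added after the data had been seen. Genes named by rule were the highest and lowest of each cluster by mean H3K27me3 share, those with H3K27ac, H3K4me3, ISL1 or POU4F1 at the 5′ end, those with the most ISL1 libraries or both POU4F1 libraries, and those without H3K27me3. Printed promoters are a subset of those the rule selects, plus Hoxb1; others named were chosen after their values were seen. Alternatives were the gene body alone, 10 kb on each side, the number of libraries required, a −log10 q of 2, 500 bp of overlap, other domain gaps and leaving out each library.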

Additional observations from a re-analysis of the deposited data

Results flagged for a closer look

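Among the 4 ISL1 libraries, ISL1_70 replicate 2 lay far from the others in its cover of the Hox gene windows. It covered 4.66%, where the other 3 covered 1.47% (ISL1_26 replicate 1), 1.20% (ISL1_70 replicate 1) and 1.56% (ISL1_70 replicate 3). Its ratio of cover on Hox windows to cover on all gene windows, 8.33, lay as far from the other 3, at 0.609, 0.594 and 1.65. In all, 7 such values were examined for a library that stands apart, and chance marks about 1 in 20 groups.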

How the results depend on the processing

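No paired analysis was possible because the results come from no test. Of the recomputed values, 138 stayed as reported within 1.5 times or the spread between libraries, 16 moved and 3 turned sign. The count of Hox genes with H3K27me3 in at least 2 libraries lay between 35 and 38 in every alternative run, and in none of the alternatives did the cover of a cluster by H3K27me3 or the length of its domain leave the spread between libraries, which H3K27me3 replicate 1 makes wide. Asking for 1 library gave 12 Hox genes with H3K27ac (4 as reported), 12 with both marks (4 as reported) and 20 with POU4F1 (3 as reported). The gene body alone gave 12 with ISL1 (27 as reported), 1 with POU4F1 and 11 with H3K4me3 replicate 2 (19 as reported). At least 500 bp of cover gave 15, 0 and 11 for these. ISL1 in all 4 libraries gave 3. Leaving out 1 library each gave 15 (without ISL1_70 replicate 2) to 23 with ISL1, and 4 to 19 with POU4F1, where 1 library remained. Within 2.5 kb of the 5′ end 9 Hox genes had ISL1 in at least 2 libraries (5 as reported). Spearman's rho of H3K27me3 cover with paralog number over all 38 genes, 0.11 as reported, was −0.0225 over the gene body and between −0.00209 (without H3K27me3 replicate 3) and 0.23 (without replicate 1); in Hoxd, 0.15 as reported, it was −0.13 over the gene body. In Hoxc, 0.43 as reported, it was 0.83 without replicate 1 and 0.07 without replicate 3. In Hoxb, 0.70 as reported, it was 0.49 over the gene body. The cause of these changes was not tested. The depth of the libraries is unknown, so a gene with no peak is a gene with none called, and no floor can be given.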
